A study of Mus musculus with 2 samples.

Results

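Galectins were followed across the cell types of mouse brains carrying GL261 glioma, through 7 genes chosen by name: Lgals1, Lgals3, Lgals3bp, Lgals4, Lgals7, Lgals8 and Lgals9. They are 7 of the 32285 mouse genes in the deposited count tables. GL261 is a mouse glioma line of the C57BL/6 strain. The tumour cells were placed in hosts of C57BL/6 wild type background or in hosts lacking Cacna1h on both alleles (Cacna1h-/-). Cacna1h is the gene of the Cav3.2 T-type calcium channel. Brain tissue was taken at day 24. Dissociated cells of tumour and surroundings went through droplet capture with the 10x Genomics 3′ kit, 1 library for each genotype. The design asks how loss of the channel in the host, not in the tumour cells, alters the glioma and its surroundings.

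With 1 library for each of the 2 groups there was no replicate, no test was possible and no p-value is given. Every interval is an exact 95% interval that covers counting error only, and the sources used here do not give how many animals lie behind a library. The targeted gene went against the labels: Cacna1h had 13 UMIs (unique molecular identifiers, 1 for each captured RNA molecule), or 0.250 for each 1000000 UMIs, in the library labelled wild type and 168 UMIs, or 1.67 for each 1000000, in the library labelled knockout. These counts cover all kept cells and are not split by cell class. Tumour cells carry their own Cacna1h, and a 3′ tag may lie outside the deleted part. Neither was tested as a cause, and the labels themselves were not tested. Both libraries are therefore called by their labels throughout, each direction below is that of the label alone, and values joined by "and" give the library labelled wild type first. Among non-tumour cells of the library labelled wild type, 1720 of 2029 had UMIs of Y-linked genes and none of Xist, and no cell had Xist alone. In the library labelled knockout 804 of 4707 had Y-linked UMIs alone and 3323 had Xist alone, so that library held cells of both sexes. Genotype label, sex and animal cannot be told apart between the libraries.

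The cell filter asked for at least 500 mouse genes and no more than 10% mitochondrial UMIs and left 3110 of 7382 barcodes in the library labelled wild type and 6575 of 8369 in the library labelled knockout. The kept cells held 52031677 and 100764971 UMIs, with a median of 12522.5 and 11071 per cell. The libraries shared 21 barcodes, 7 of them among kept cells. Cell classes were gated on markers that include no galectin and are named by them (T cell-like and so on). Of the kept cells 409 and 779 matched no class clearly and were left ungated. Markers such as Cd3g and Trac for T cell-like cells and Tmem119 for microglia-like cells belong to the gate itself. Their presence in these classes follows from the gate and is no separate check of the names.

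Galectins are lectins that bind beta-galactoside sugars on glycoproteins. They lack a classical secretion signal, work both inside the cell and, once released, on the cell surface, and cross-link glycosylated receptors. In glioma the family is known for effects on tumour cell migration and on the survival and activity of lymphocytes. Lgals1 and Lgals7 encode prototype galectins, Lgals3 the chimera type with a long tail, and Lgals4, Lgals8 and Lgals9 tandem-repeat galectins. Lgals3bp encodes no galectin but a secreted, heavily glycosylated scavenger receptor-like protein that galectins bind.

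All 7 genes were detected in both libraries. Over all kept cells Lgals1 had 41125 UMIs (790 CPM, counts for each 1000000 mouse UMIs of the same cells) in the library labelled wild type and 68454 (679 CPM) in the library labelled knockout. Lgals3 had 21136 and 40281 UMIs, Lgals3bp 7637 and 18866, and Lgals9 6546 and 14145. The remaining members were sparser, with 1570 and 3838 UMIs for Lgals8, 487 and 2334 for Lgals7, and 70 and 150 for Lgals4. Because 3′ tags are not scaled to gene length, levels are compared between cells for 1 gene and never between genes. Of 4 other family genes with a row, Lgalsl had 915 and 1318 UMIs, and Lgals2, Grifin and Lgals12 at most 36 in a library.

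**Figure D1:**
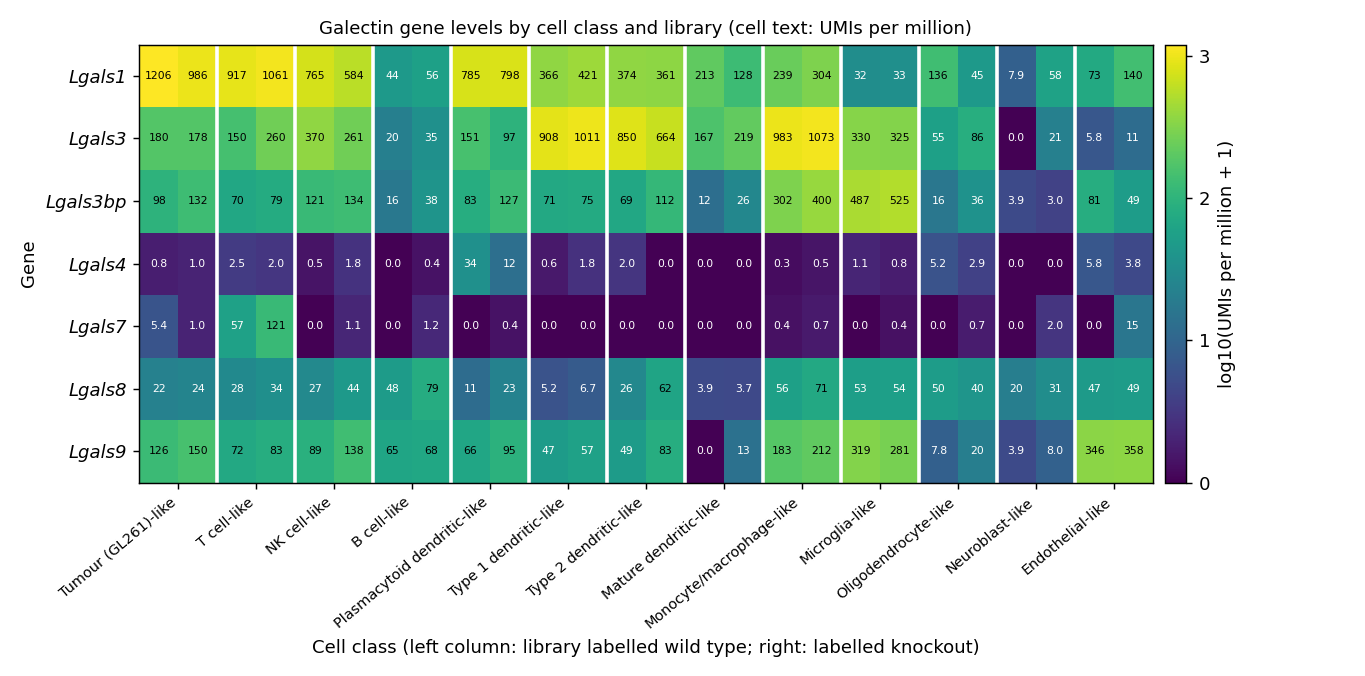
CPM (UMIs for each 1000000 mouse UMIs, log10 colour scale) of the 7 genes in the 13 cell classes that reached 20 cells in both libraries, the 2 libraries in adjacent columns. Lgals1 is highest in tumour and T cell-like cells, Lgals3 in monocyte/macrophage-like and type 1 and type 2 dendritic-like cells, Lgals3bp in microglia-like cells and Lgals7 in T cell-like cells.

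Each class was summed within a library and compared over the 9 classes that reached 50 cells in both. A gene was measured in a class at 100 UMIs or more over both libraries, and called by size alone at 1.5-fold. Of the 63 pairs of a member and a class, 40 were measured: 6 were higher under the knockout label, 3 lower and 31 within 1.5-fold. Over all genes 7.14% of measured gene and class pairs were higher and 5.7% lower. The members were chosen with earlier results of these data known. The higher pairs were Lgals3 and Lgals7 in T cell-like cells, Lgals8 and Lgals9 in NK cell-like cells, Lgals8 in B cell-like cells and Lgals3bp in plasmacytoid dendritic-like cells. The lower pairs were Lgals7 in tumour-like cells, Lgals3 in plasmacytoid dendritic-like cells and Lgals1 in mature dendritic-like cells. No member was past 1.5-fold in type 1 dendritic-like cells (4 measured, where 4.34% of all genes were higher and 4.8% lower). The same held for the 5 members measured in monocyte/macrophage-like cells (5.74% and 5.88% of all genes) and the 5 measured in microglia-like cells (4.7% and 5.02%). Some of these calls moved with the setting: Lgals9 in type 1 dendritic-like cells (0.26) passed 1.5-fold in 4 of 11 other settings, up to 0.76 with a stricter gate, and Lgals1 in microglia-like cells (0.08) stood at 1.47 with classes from clusters and at -0.72 among Y-linked cells only.

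**Figure D2:**
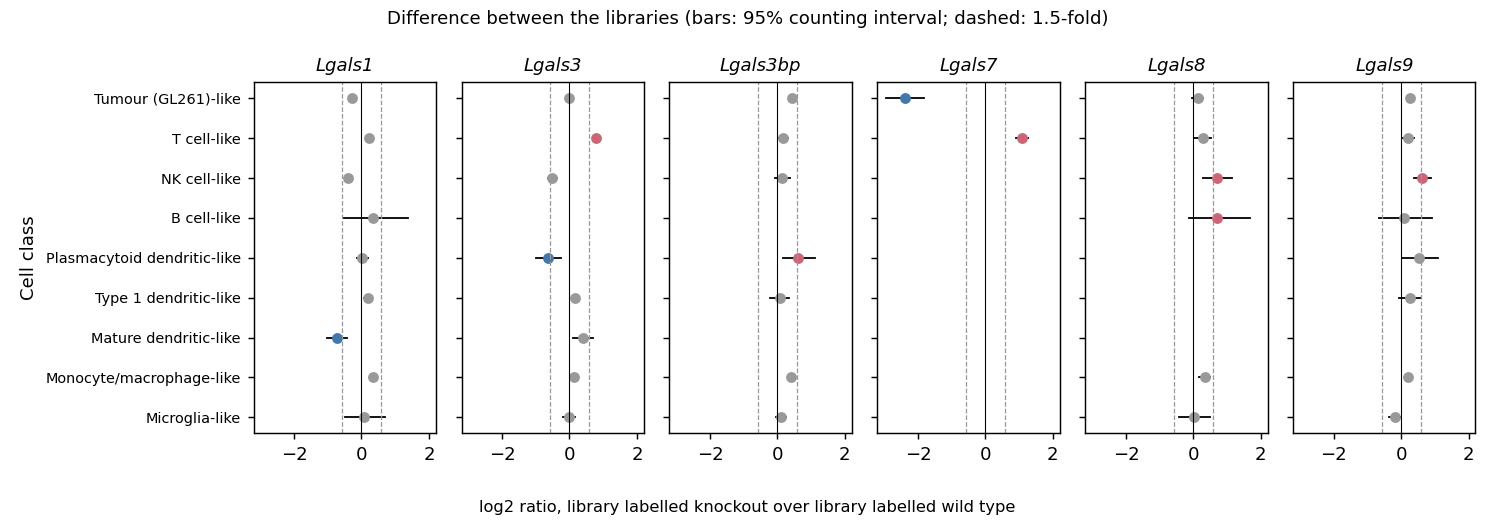
Log2 ratio of CPM, library labelled knockout over library labelled wild type, for 6 galectin genes in each class where the gene was measured; points are ratios, bars the 95% counting interval and dashed lines 1.5-fold. Most points lie between the dashed lines, and the Lgals7 points of T cell-like cells (1.08) and tumour-like cells (-2.37) lie on opposite sides.

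Lgals1 (ENSMUSG00000068220, mm10 chr15:78926725-78930465, plus strand) encodes galectin-1, known for inducing death or tolerance of activated T cells and abundant in gliomas. Its name is shared by 2 annotated pseudogenes, and the sources used here do not say how the counting split reads among such copies. In tumour-like cells Lgals1 stood at 1206 CPM (95% interval 1192 to 1221; 27654 UMIs in 672 cells) in the library labelled wild type and at 986 (976 to 997; 33223 UMIs in 1089 cells) in the library labelled knockout, a log2 ratio of -0.29. T cell-like cells followed at 917 and 1061 CPM, plasmacytoid dendritic-like cells at 785 and 798, and NK cell-like cells at 765 and 584. The first place in the order changed with the library: tumour-like cells led under the wild type label and T cell-like cells under the knockout label, each beyond the counting intervals. Monocyte/macrophage-like cells held 239 and 304.5 CPM, and microglia-like cells 31.7 and 33.4. Barcodes under the 500-gene filter held Lgals1 at 232 and 204 CPM. These 2 sets are unlike, 3990 barcodes with a median of 73 UMIs and 1239 with a median of 792. The second set may thus hold shallow cells as well as RNA outside cells. What part of the low levels came from RNA outside intact cells was not tested.

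Within tumour-like cells Lgals1 moved with division. Cells with at least 3 of 6 division genes detected, 349 of 672 and 320 of 1089 tumour-like cells, had Lgals1 at 1364 and 1426 CPM. Non-dividing tumour-like cells had 897 and 652, a log2 ratio of -0.46 (-0.50 to -0.42), which is still within 1.5-fold. Lgals3 ran the other way, with 124 and 150 CPM in dividing and 291 and 200 in non-dividing tumour-like cells. Dividing cells were also deeper, with a median of 40391 and 42413 UMIs against 22483 and 23984.

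In mature dendritic-like cells, which carry antigen to lymph nodes, Lgals1 was lower under the knockout label, 128 CPM (275 UMIs in 212 cells) against 213 (162 UMIs in 87 cells). The log2 ratio was -0.73 (-1.02 to -0.44). It was -0.11 when classes were taken from unsupervised clusters instead of the marker gate, so the call depends on how the class is drawn. Markers of monocytes and macrophages summed to 32.9 and 304 CPM in these cells (7 and 4 of 14 markers at 0), and their part in the result was not tested. Lgals3 was the only other member measured there, at 167 and 219 CPM, so that 1 of 2 was lower, where 5.35% of all genes were higher and 4.97% lower.

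Lgals3 (ENSMUSG00000050335, chr14:47367751-47386160, plus strand) encodes galectin-3, made by macrophages and known for binding advanced glycation products, the microglial receptor Trem2 and damaged lysosomes. Monocyte/macrophage-like cells held 983 CPM (961 to 1006) and 1073, type 1 dendritic-like cells 908.5 and 1011, and type 2 dendritic-like cells 850 and 664. The next classes stood far lower: NK cell-like cells at 370.2 and 260.8 and microglia-like cells at 329.5 and 324.8. In tumour-like cells Lgals3 was 180 and 178 CPM, a log2 ratio of -0.01.

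In T cell-like cells Lgals3 was higher under the knockout label, 260.1 against 149.7 CPM (4700 UMIs in 1625 cells and 912 UMIs in 636 cells), a log2 ratio of 0.80 (0.69 to 0.90). Among Y-linked cells only the ratio was 0.43, within 1.5-fold. T cell-like cells had 2 of 6 measured members higher, where 5.4% of all genes were higher and 2.55% lower. The Lgals3 difference lay in the CD8 and CD4 subsets. Cells with a Cd8 UMI but neither Cd4 nor Foxp3 stood at 172 and 402 CPM (log2 ratio 1.22). Cells with Cd4 but neither Cd8 nor Foxp3 stood at 121 and 285 (1.23), and cells with Foxp3, the factor of regulatory T cells, at 40.3 and 105 (1.39). The remaining T cell-like cells, with no such mark or with conflicting ones, ran the other way, 209 and 153. So did cells with Trdc or Il17a and none of these marks, 100.2 and 54.8. These last levels came from 23 and 42 UMIs, under the limit for a measured ratio. Single cells carried some of it: 1 CD4 cell of the library labelled knockout held 249 Lgals3 UMIs, 16.6% of its subset, and without the highest cell of each library the CD4 ratio was 1.13. Summed monocyte and macrophage markers, the main source class of Lgals3, came to 552 CPM in wild type-labelled and 525 in knockout-labelled T cell-like cells.

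In plasmacytoid dendritic-like cells, the specialised interferon producers, Lgals3 was lower under the knockout label, 97.3 (246 UMIs in 214 cells) against 150.6 CPM (80 UMIs in 59 cells), a log2 ratio of -0.63 (-0.999 to -0.247). Without the highest cell of each library the ratio was -0.55, within 1.5-fold, and among Y-linked cells only it was -0.09. In this class 1 of 4 measured members was higher and 1 lower, where 6.24% of all genes were higher and 4.97% lower.

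In microglia-like cells Lgals3 differed far more inside the library labelled knockout than between the libraries. Between the libraries the log2 ratio was -0.02 (-0.20 to 0.16), with 83 of the 312 UMIs of the library labelled wild type, 26.6%, in 1 cell. Without the highest cell of each library it was 0.30, and with classes from clusters 1.19. Within the library labelled knockout, the 86 microglia-like cells with Y-linked UMIs held Lgals3 at 66.3 CPM (55 UMIs) and the 245 cells with Xist held 364.6 (1398 UMIs), 5.50-fold more (4.20 to 7.34). The library labelled wild type had 70 such Y-linked cells at 352.5, level with the Xist cells. Shares of cells with an Lgals3 UMI ran in the same order, 41.4% in wild type-labelled Y-linked cells, 16.3% in knockout-labelled Y-linked cells and 53.5% in Xist cells, and 22.1%, 4.71% and 26.1% after each cell was thinned to 2000 UMIs. The Y-linked cells of the library labelled knockout also had the highest summed microglia markers, 11687 CPM against 6951 and 6903, and the lowest summed monocyte and macrophage markers, 1242 against 1560 and 1636. The part of those markers in the result was not tested, and whether sex or animal separates the cells cannot be told apart.

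Lgals3bp (ENSMUSG00000033880, chr11:118392751-118402092, minus strand) is an interferon-inducible gene, and Lgals9 (ENSMUSG00000001123, chr11:78962974-78984946, minus strand) encodes galectin-9, also induced by interferon and known as a ligand of the T cell receptor Havcr2 (TIM-3). Because both are known interferon targets, the bases before their RefSeq starts are shown for reading beside the interferon genes below (GRCm38.p6, minus strand, 5′ to 3′). The windows lie at chr11:78984947-78985174 for Lgals9 and chr11:118402093-118402209 for Lgals3bp, and bases that GENCODE annotates as exon were left off. Capitals mark the single match to the interferon-response core (GAAA, any 2 bases, GAAA), read on either strand, from -55 to -46 before the start of Lgals9.
Lgals9: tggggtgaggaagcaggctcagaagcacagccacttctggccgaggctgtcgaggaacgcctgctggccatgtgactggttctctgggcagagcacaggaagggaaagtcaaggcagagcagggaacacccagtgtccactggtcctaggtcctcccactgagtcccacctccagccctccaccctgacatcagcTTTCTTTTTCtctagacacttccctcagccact
Lgals3bp: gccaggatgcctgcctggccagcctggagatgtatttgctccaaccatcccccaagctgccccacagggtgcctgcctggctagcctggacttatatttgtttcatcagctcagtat

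Of the 6 members with a RefSeq promoter (Lgals1 had no entry), only Lgals9 held this core in the 250 bases before its start, as did 2.98% of 32851 mouse promoters. None held TTCNNNGAA, the gamma-activated site present in 7.02% of promoters, or TGANTCA, the AP-1 site present in 6.75%. The GC box GGGCGG, in 32.7% of promoters, occurred in Lgals3 and Lgals7. For Lgals3, Lgals7 and Lgals8 the bases searched lie within the span that GENCODE gives the gene, downstream of its first annotated start. The same holds for the 133 searched bases nearest the RefSeq start of Lgals3bp and the 22 nearest that of Lgals9. Only the printed bases of these 2 genes thus lie before the GENCODE start. The GC box of Lgals3, from -7 to -2, lies past the start of a GENCODE exon. These are matches of letters and not shown to be bound.

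Lgals3bp was highest in microglia-like cells in both libraries, 487 CPM (444 to 534) in the one labelled wild type and 525 (506 to 546) in the other. Monocyte/macrophage-like cells followed at 302 and 399.6, a log2 ratio of 0.40 (0.33 to 0.47), and tumour-like cells held 98.0 and 131.5, a ratio of 0.43. Within monocyte/macrophage-like cells those with both Mmp12 and Adamdec1 stood at 319 and 515 (0.69). Of the rest, the macrophages with Arg1 stood at 229 and 353 (0.63). Both ratios were past 1.5-fold. Monocytes with Ly6c2 or Chil3 stood at 282 and 376 and the remaining cells at 349 and 441. All 4 subsets were thus higher under the knockout label, and 2 of them past 1.5-fold. In plasmacytoid dendritic-like cells Lgals3bp was 82.8 (44 UMIs) and 126.6 CPM (320 UMIs), a ratio of 0.61 (0.15 to 1.10), whose interval reaches below 1.5-fold, and 0.52 among Y-linked cells only.

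Lgals9 was highest in endothelial-like cells, 346 CPM (119 UMIs in 20 cells) and 358 (95 UMIs in 35 cells). Microglia-like cells stood at 319 and 281, and under the wild type label endothelial-like and microglia-like cells did not differ beyond their counting intervals. Monocyte/macrophage-like cells held 183 and 211.5 CPM and tumour-like cells 126 and 150.2. Mature dendritic-like cells were at the other end, with 0 UMIs under the wild type label, which allows up to 3.94 CPM by the 3-count limit, and 28 UMIs (13.1 CPM) under the knockout label. In NK cell-like cells Lgals9 was 89.2 (191 UMIs in 257 cells) and 137.7 CPM (605 UMIs in 604 cells), a log2 ratio of 0.63 (0.39 to 0.87). The NK cell-like ratio of Lgals9 fell within 1.5-fold with classes from clusters, at 0.41, with each cell weighing the same, at 0.36, and without dividing cells, at 0.44. Its reported receptor gene Havcr2 in T cell-like cells was 125 and 131 CPM.

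Lgals8 (ENSMUSG00000057554, chr13:12439415-12464944, minus strand) encodes galectin-8, known for marking damaged vesicles for autophagy through Calcoco2. It overlaps Heatr1 on the other strand, and the sources used here do not say whether counting used strand. Monocyte/macrophage-like cells held 56.1 and 70.6 CPM and microglia-like cells 52.8 and 53.8. Type 1 and mature dendritic-like cells stood lowest, between 3.73 and 6.65 CPM. In NK cell-like cells Lgals8 was 27.1 (58 UMIs) and 44.2 CPM (194 UMIs), a log2 ratio of 0.71 (0.28 to 1.15), or 0.56 among Y-linked cells only. In B cell-like cells 12 UMIs in 60 cells (48.5 CPM) stood against 190 UMIs in 286 cells (79.1 CPM), and the interval of the ratio, 0.71 (-0.13 to 1.69), included no difference. With Y-linked cells of one label set against Xist cells of the other it was 0.36. Lgals8 was 1 of 3 members measured in B cell-like cells, where 11.7% of all genes were higher and 10.2% lower.

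NK cell-like cells had 2 of 5 measured members higher, where 6.97% of all genes were higher and 7.97% lower. T cell markers summed to 662 and 769 CPM in NK cell-like cells and monocyte and macrophage markers to 324 and 462, and their part in these ratios was not tested. In the same cells Lgals1 and Lgals3 were lower under the knockout label but within 1.5-fold, with log2 ratios of -0.39 and -0.51. Among Y-linked cells only, the ratios were -0.96 for Lgals1 and -1.37 for Lgals3, both past 1.5-fold.

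Lgals4 (ENSMUSG00000053964, chr7:28833854-28841708, plus strand) encodes galectin-4, a lectin of gut epithelium. It was too sparse to be measured in any class. Its counts were highest in plasmacytoid dendritic-like cells, 18 UMIs (33.9 CPM, 20.1 to 53.5) and 31 UMIs (12.3 CPM, 8.33 to 17.4). Every other class with at least 20 cells held at most 5.82 CPM in either library.

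Lgals7 (ENSMUSG00000053522, chr7:28863853-28866284, plus strand) encodes galectin-7, best known from skin and other stratified epithelia. It overlaps the antisense gene Gm10648 on the other strand. Whether their exons overlap was not tested, and the sources used here do not say whether counting used strand. GENCODE starts the gene at 28863853, upstream of the RefSeq start, so the bases shown lie within its annotated span. The bases before its RefSeq start that GENCODE does not annotate as exon are shown because the UMIs of Lgals7 were concentrated in T cell-like cells (GRCm38.p6 chr7:28864136-28864228, plus strand, with capitals marking the GC box from -197 to -192).
Lgals7: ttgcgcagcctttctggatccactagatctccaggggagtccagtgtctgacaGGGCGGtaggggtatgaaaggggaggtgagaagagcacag

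Lgals7 was a transcript of T cell-like cells in these brains. In the library labelled wild type T cell-like cells held 347 of its 487 UMIs (56.97 CPM) and tumour-like cells 123 (5.37 CPM). In the library labelled knockout T cell-like cells held 2180 of 2334 (120.7 CPM) and tumour-like cells 35 (1.04 CPM). NK cell-like, B cell-like, dendritic-like, monocyte/macrophage-like and microglia-like cells held between 0 and 1.25 CPM. Endothelial-like cells had 0 UMIs in 20 cells under the first label and 4 UMIs in 35 cells under the second (15.1 CPM, 4.11 to 38.6), second to T cell-like cells there but resting on those 4 UMIs.

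Among T cell-like cells Lgals7 sat in the CD4 cells without Foxp3: 196.4 CPM (220 UMIs in 127 cells) and 316.6 (1664 UMIs in 514 cells), a log2 ratio of 0.69 (0.49 to 0.90). Foxp3 cells held 26.8 and 72.9 CPM, but single cells had 11 of the 20 UMIs in the first library and 81 of the 238 in the second. CD8 cells held 0.979 and 2.36 CPM, from 3 and 14 UMIs. The remaining T cell-like cells held 111.6 and 92.0, and cells with Trdc or Il17a 0 and 1.30. The subsets thus differed far more than the libraries did. Over all T cell-like cells the log2 ratio was 1.08 (0.92 to 1.25) and with the 5 subsets weighted alike 0.53, within 1.5-fold. Among Y-linked cells only, the direction turned, to -0.15.

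**Figure D3:**
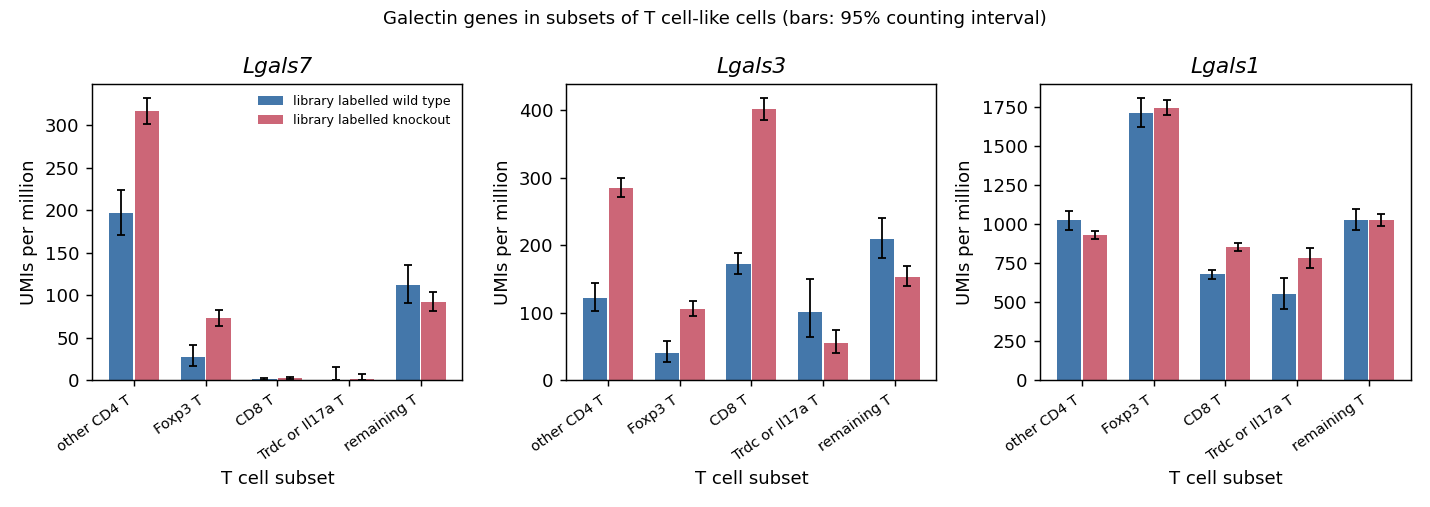
CPM of Lgals7, Lgals3 and Lgals1 in the 5 subsets of T cell-like cells, by library; bars are levels and error bars the 95% counting interval. Lgals7 is highest in other CD4 T cells (196.4 and 316.6 CPM), Lgals3 is higher under the knockout label in CD8, other CD4 and Foxp3 cells, and Lgals1 is highest in Foxp3 cells of both libraries.

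Lgals1 followed another order among the same subsets. It was highest in Foxp3 cells, 1713 and 1747 CPM, and stood at 1023 and 931 in the other CD4 cells and 678.5 and 853 in CD8 cells. None of these subset ratios passed 1.5-fold.

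The UMIs of Lgals7 were unevenly spread over CD4 cells in both libraries. A UMI was seen in 40 of 127 other CD4 cells (31.5%) of the library labelled wild type, against 206 of 514 (40.1%) of the library labelled knockout. After thinning to 2000 UMIs the shares were 17.5% (11.3 to 25.2) and 23.2% (19.6 to 27.2), with overlapping intervals. The share grew with depth, so it does not give the share of cells that express the gene. CD8 cells, which were as deep or deeper (medians of 8615 and 10076.5 UMIs against 7225 and 8150.5), gave 0.342% and 0.211% on the same thinned basis. At least 10 UMIs were found in 8 and 53 CD4 cells and none in 87 and 308. The 13 and 51 cells with the most UMIs held 74.6% and 73.7% of the Lgals7 UMIs.

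**Figure D4:**
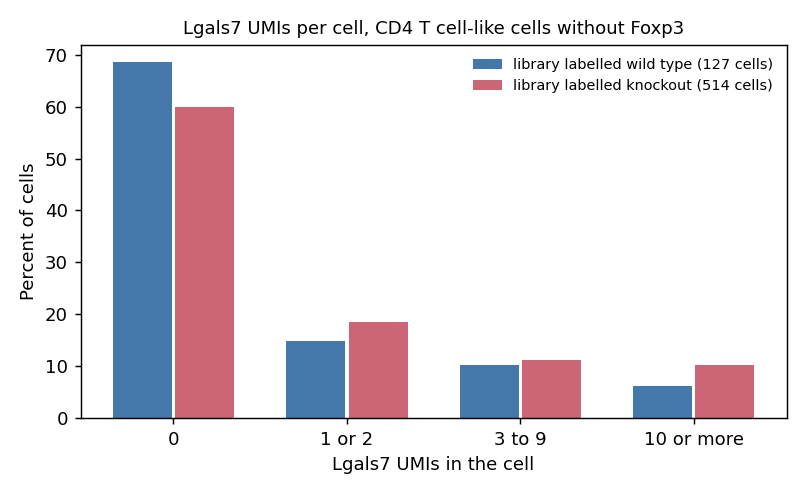
Percent of other CD4 T cells with 0, 1 to 2, 3 to 9, or 10 or more Lgals7 UMIs, by library. Most cells of both libraries have none (87 of 127 and 308 of 514), and 8 and 53 cells have 10 or more.

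CD4 cells with at least 3 Lgals7 UMIs were set beside those with none, after thinning, as a description of cells chosen by the gene itself on their full counts. The chosen cells were deeper before thinning, with medians of 11251 and 12308 UMIs against 6176.5 and 7172.0, and the part of depth or cell size in what follows was not tested. Apart from Lgals7, 9 genes were at least 2-fold higher in both libraries and 53 genes lower. The number of genes compared is not given, so these counts have no share over all genes beside them. Penk, the enkephalin precursor, stood at 571 against 87.2 CPM in the library labelled wild type, and at 423 against 100 in the other. Ccl1, a chemokine for Ccr8, stood at 1595 against 419 and 1149 against 328, and Irf4, a factor of activated and helper T cells, at 333 against 134 and 279 against 123. The cells with Lgals7 were low in Gzmb, a cytotoxic granzyme (23.8 against 320 and 13.5 against 360.0), and in Tcf7, a factor of naive and memory T cells (23.8 against 157 and 4.51 against 188). Ikzf2, often found in regulatory T cells, stood at 309.5 against 1093 and 131 against 873. These genes were picked after their values were seen, and with 21 and 111 thinned cells in the Lgals7 groups several rest on few UMIs. In those groups Gzmb had 1 and 3 UMIs and Tcf7 1 and 1.

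In tumour-like cells Lgals7 was lower under the knockout label, 1.04 against 5.37 CPM, a log2 ratio of -2.37 (-2.95 to -1.82). It was the only one of 6 measured members past 1.5-fold there, where 11.8% of all genes were higher and 6.72% lower. A UMI was found in 57 of 672 tumour-like cells and in 21 of 1089, with at most 12 and 9 in a cell. Split by division, the counts fell under the 100-UMI limit for a measured ratio, with 4.74 and 1.37 CPM in dividing cells (72 and 20 UMIs) and 6.60 and 0.784 in the others (51 and 15 UMIs). T cell markers summed to 19.98 and 36.5 CPM in the tumour-like cells with all 10 detected, and their part in the result was not tested. T cell-like cells themselves had 5349 and 5553.

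Within the library labelled knockout, galectins were also compared between cells with Xist and cells with Y-linked UMIs in the 5 classes with enough of both. Of 24 measured pairs 7 were higher in Xist cells by at least 1.5-fold and none lower, where 8.09% of all gene and class pairs were higher and 4.97% lower. Lgals1, Lgals3 and Lgals3bp in microglia-like cells were among the 7, with Lgals1 resting on 14 Y-linked UMIs. Another was Lgals9 in B cell-like cells, 1.59-fold, whose interval (0.965 to 2.79) included no difference. Lgals7 in T cell-like cells was 55.4 CPM in Y-linked and 140.3 in Xist cells, 2.53-fold more, beside 61.4 in the Y-linked cells under the wild type label. In other CD4 cells Lgals3 was 112 in Y-linked and 318 in Xist cells, beside 110 in the Y-linked cells that carry the wild type label. Y-linked CD4 cells of both libraries thus lay side by side and the Xist cells above them. The Y-linked sets lay apart in other cells. In CD8 cells Lgals3 was 284 in Y-linked and 446 in Xist cells of the library labelled knockout, and 164 in wild type-labelled Y-linked cells. Among NK cell-like cells it was 153 and 276, both below the 396 of wild type-labelled Y-linked cells. Lgals3bp in microglia-like cells was 365 and 568.5 beside 481, and Lgals1 in B cell-like cells 26.7 and 67.3 beside 46.99 (10 to 110 UMIs). Monocyte/macrophage-like cells showed no such gap, with Lgals3 at 994 and 1080 CPM and 968 in Y-linked cells of the library labelled wild type.

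**Figure D5:**
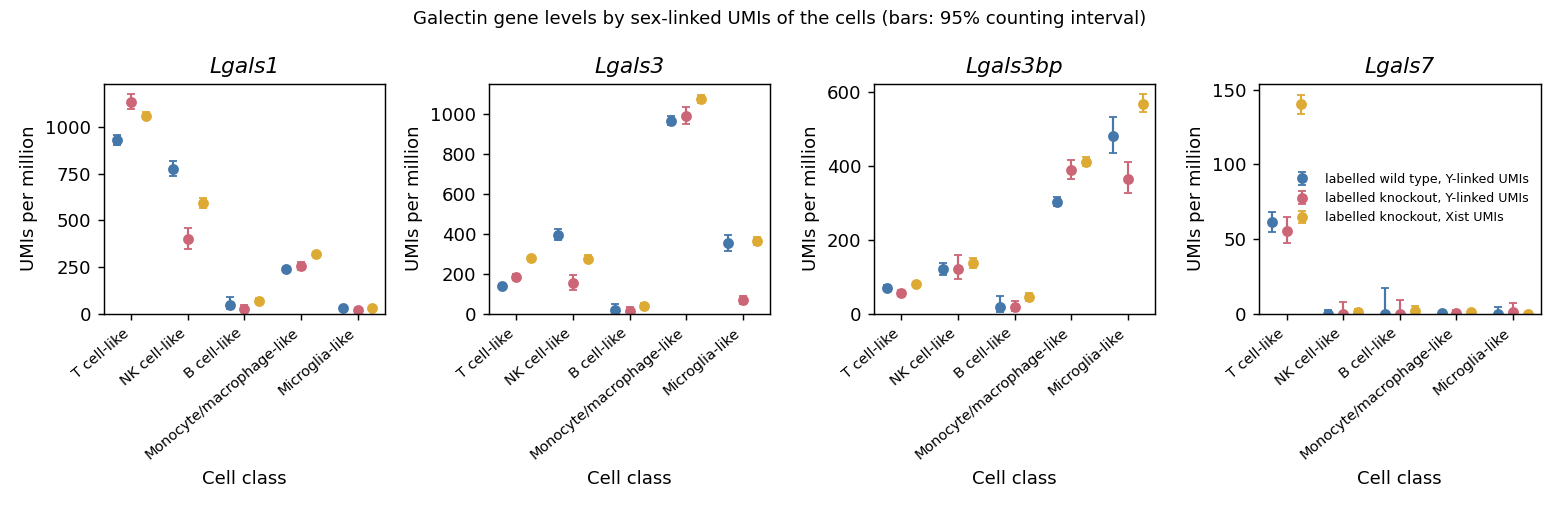
CPM of Lgals1, Lgals3, Lgals3bp and Lgals7 in 5 classes for 3 sets of cells: Y-linked cells under the wild type label, then Y-linked and Xist cells under the knockout label; error bars are 95% counting intervals. In microglia-like cells Lgals3 is 352.5, 66.3 and 364.6, and in T cell-like cells Lgals7 is 61.4, 55.4 and 140.3.

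Profiles of the members over the 18 combinations of class and library with at least 50 cells were compared with those of 7022 genes by Pearson's r of log2 levels, as a description with shared libraries and depths. Lgals7 was most like Foxp3 (r = 0.958), followed by Tcrg-C2, Fam20a and Izumo1r, although Lgals7 was low in Foxp3 cells themselves. Outside T cell-like cells Lgals7 reached at most 5.37 CPM in these profiles, so its r values rest largely on the T cell-like profiles. Lgals3bp was most like Trf, which encodes transferrin (0.935), and Pla2g15 (0.925), Lgals1 like Cwc15 (0.921), Lgals9 like Usp36 (0.928), Lgals3 like Olfm1 (0.899) and Lgals8 like Mindy2 (0.886). Among the members themselves Lgals3bp and Lgals9 were the most alike (0.814), then Lgals8 and Lgals9 (0.730), while Lgals1 and Lgals3 had r = 0.222.

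The genes that galectins act on were followed in a list of 26 binding partners. Over the 9 classes 133 pairs were measured, 26 higher under the knockout label and 3 lower, beside 7.14% and 5.7% over all genes. This list and those of enzymes and interferon genes below were chosen with earlier results of these data known. A count above the share over all genes is therefore no independent result. Tumour-like cells held 8 of the higher ones among 16 measured, with a median log2 ratio of 0.38 against 0.02 over all genes, of which 11.8% were higher. They included the leukocyte phosphatase Ptprc (CD45; 7.59 and 21.02 CPM), Pdpn (0.611 and 2.94) and Havcr2 (1.57 and 3.56), all at low levels there, while the most counted partner Itgb1 stood at 326 and 334. Monocyte and macrophage markers in tumour-like cells summed to 111 and 180 CPM (1 of 14 at 0 under the wild type label), and their part in this count was not tested.

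Among immune cells Lag3, an inhibitory receptor reported to bind galectin-3, was 94.1 and 149 CPM in T cell-like cells and 24.2 and 8.06 in monocyte/macrophage-like cells. Cd40, a costimulatory receptor that galectin-9 is reported to bind, was 139 and 331 in mature dendritic-like cells. Pdpn, a partner of galectin-8, was 16.2 and 59.6 in monocyte/macrophage-like cells, and Nrp1, a partner of galectin-1, 80.5 and 42.4. T cell-like cells had 3 of 19 measured partners higher (Lag3, Cd40 and Trim16; 5.4% over all genes), with a median ratio of 0.08.

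Enzymes that build or cap the sugars galectins bind were followed in a list of 20 genes, with 9 of 122 measured pairs (7.14% over all genes) higher and 6 (5.7%) lower. In tumour-like cells 3 of 18 were higher, where 11.8% of all genes were: St6gal1, whose sialic acid cap blocks galectin-1 binding, at 7.07 and 24.5 CPM, Mgat5, which builds branched ligands, at 22.8 and 37.1, and Mgat3 at 3.53 and 6.23. In B cell-like cells St6gal1 was lower, 331 and 194. In T cell-like cells 1 of 19 was lower, St3gal6, and none higher.

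Interferon factors and targets, read beside Lgals3bp and Lgals9, were higher in 20 of 60 measured pairs and lower in 1, beside 7.14% and 5.7% over all genes. The pairs are the same 7 genes repeated over the classes, in a list chosen with earlier results of these data known. In tumour-like cells 5 of 7 were higher (11.8% over all genes, median log2 ratio of the list 0.66), with Ifit3 at 74.2 and 209 CPM. Type 1 dendritic-like cells also had 5 of 7 higher (4.34% over all genes, median 0.83), while T cell-like cells had 1 of 7 (Irf7), where 5.4% of all genes were higher. In microglia-like cells Ifit3 was lower. Lgals3bp and Lgals9 were within 1.5-fold in both of those classes, with log2 ratios of 0.43 and 0.26 in tumour-like cells and 0.07 and 0.26 in type 1 dendritic-like cells.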

How the data were processed

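The authors deposited raw UMI counts per gene and barcode for each library, in a table that also holds human genes. Cell Ranger 7.1.0, Seurat 5.0.2 and mm10 are named in the submitters' processing notes, and the step Seurat served is not given there. The members and lists were chosen with earlier results of these data known. Mouse counts were used as deposited. Barcodes needed 500 mouse genes and no more than 10% mitochondrial UMIs. A cell took the class with the most detected markers, given at least 3 and a lead of at least 2. Counts were summed per class and library as CPM with exact Poisson intervals, and ratios had exact conditional intervals; no test was run. Shares had exact Clopper-Pearson intervals. Genes with at least 100 UMIs in a class were called at 1.5-fold. Every member was named whatever its value; from each list (galectin binding partners, galectin ligand glycan enzymes, interferon factors and targets, other galectin family genes) the 4 largest ratios and the most counted gene per described class were open to naming, and the 4 genes most alike by Pearson's r. Doublets were called with Scrublet in scanpy 1.11.5 and removed only as an alternative, since the automatic threshold marked 0.289% of the library labelled wild type; 77 and 164 cells were taken. Python 3.11.15, numpy 2.4.6, scipy 1.17.1 and pandas 2.3.3 were used. Scripts were tested on simulated data. Alternatives were other cell filters, classes from 29 Leiden clusters, doublet removal, other scaling, a mean over cells, other fold and count limits, and sex-linked subsets. The stricter gate, removal of dividing cells or of the highest cell, T cell subsets weighted alike, and the split by Xist were chosen after seeing the data. Y-linked genes were Ddx3y, Uty, Eif2s3y and Kdm5d. Promoter sequences came from RefSeq (GRCm38.p6), and positions from GENCODE M21.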

Additional observations from a re-analysis of the deposited data

Results flagged for a closer look

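Lgals3 and Lgals7 moved in opposite directions between classes under the same contrast of labels. The log2 ratio of Lgals3 was 0.797 in T cell-like and -0.630 in plasmacytoid dendritic-like cells. That of Lgals7 was 1.082 in T cell-like and -2.368 in tumour-like cells. Among Y-linked cells only, the 2 ratios of Lgals3 were 0.434 and -0.093, both within 1.5-fold. That of Lgals7 in T cell-like cells was -0.146 there, and tumour-like cells were not split in this way. With 1 library per label the difference between classes was not tested.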

How the results depend on the processing

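Of 434 ratios recomputed under the alternatives, 352 stayed within the counting interval of the reported value. This varied with the setting: all 40 stayed under either cell filter, but 11 of 34 among Y-linked cells only. Over all settings the sign changed in 30 ratios, 12 of them among Y-linked cells only. Of these 1 belonged to a ratio called at 1.5-fold, Lgals7 in T cell-like cells, from 1.08 to -0.146 among Y-linked cells only, and 29 to ratios within 1.5-fold, 4 of which passed 1.5-fold the other way. The cause was not tested. The 6 higher member and class pairs became 1 at a fold of 2, 11 with classes from clusters and 1 among Y-linked cells only, and the 3 lower pairs became 1 at a fold of 2 and 5 among Y-linked cells only. Fewer classes and cells entered the Y-linked setting. Over all genes, 4674 higher and 3735 lower pairs became 12294 and 9722 with genes of at least 20 UMIs included, and 1453 and 891 at a fold of 2. With at least 20 UMIs, binding partners gave 42 higher and 7 lower pairs in place of 26 and 3, and glycan enzymes 15 and 17 in place of 9 and 6. Thinned to 1000 UMIs, the share of other CD4 T cells with Lgals7 under the knockout label was 13.23% in place of 23.2%. Lgals7 in tumour-like cells stayed past 1.5-fold in all 9 settings, from -3.18 to -2.26. No paired analysis was possible because each group has 1 library and the labels give no replicate numbers. Depth limits Lgals4, and Lgals7 outside T cell-like and tumour-like cells, to levels without a ratio.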
